A study of Mus musculus with 8 samples.

Results

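9 genes of red blood cell development, from the first regulators of the lineage to the late products of the erythroblast, were followed through 8 bulk RNA-seq libraries of sorted bone marrow stem cells from mice with chronic myeloid leukemia (CML). Of 15576 genes in the count table they were taken by symbol: Gata1, Epor, Klf1, Car1, Car2, Ermap, Slc4a1, Alas2 and Hbb-bt. They had been selected with their values in these same libraries known, so their difference between untreated and treated mice is given here as a description, without a test. All 9 passed the filter on low counts.

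The mice carried 2 transgenes in the double transgenic BCR-ABL×SCL-tTA model. In it, regulatory sequences of the stem cell leukemia (SCL) gene drive a tetracycline transactivator, and withdrawal of tetracycline turns BCR-ABL on in the stem cells. The labels give the strain as C57BL/6 and the tissue as bone marrow, and no age or sex. The 4 CML libraries came from untreated leukemic mice and the 4 CML-TKI libraries from leukemic mice given imatinib, the tyrosine kinase inhibitor (TKI) of BCR-ABL, by the labels at 400 mg/kg by gavage on alternate days for 30 days. The study's text gives a lower dose for the mice of its RNA-seq comparison, so the dose is uncertain, and the labels' treatment text stands on the untreated libraries as well, which another label field calls untreated. Both groups carried the same transgenes, and neither is a normal control. The labels describe one sort gate for both groups, lineage-negative, Sca1+, cKit+, Flt3-, CD150- and CD48+, whereas the study's text describes its leukemic stem cells as CD150+ and CD48-. Nothing in the labels says that libraries of a group came from separate mice, so the spread between them may be partly technical. The CML libraries are called here by the numbers of their columns, 1, 2, 3 and 5, and the CML-TKI libraries by 1 to 4.

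Red cells form as a stem cell passes through progenitors that read out GATA1, the master transcription factor of the lineage, and become dependent on erythropoietin through its receptor EPOR. KLF1 then opens the genes of hemoglobin, the membrane and the cell cycle exit. Carbonic anhydrases appear early in this path, membrane proteins such as band 3 in the middle, and the erythroid enzyme of heme synthesis and the globins dominate the transcripts of the last nucleated stages. Stem cells express few of these genes, but leukemic and normal stem and progenitor populations may hold cells that have started along the path.

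Total counts ran from 4939644 to 8620101 in the CML libraries and from 1041552 (CML-TKI 3) to 5104268 in the CML-TKI libraries. Levels are CPM, counts scaled to library size, after TMM normalization. A level of 3 counts, the limit that a count of 0 allows, corresponds to 0.409 to 0.580 CPM in the CML libraries, to 0.570 in CML-TKI 1, 0.930 in CML-TKI 2, 3.29 in CML-TKI 3 and 0.780 in CML-TKI 4, and covers counting error only. The libraries were bulk sums, in which fewer cells of a type and less RNA per cell cannot be told apart.

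The stretches upstream of 4 of the genes are shown because these genes formed the 2 patterns described below: Klf1 and Ermap, highest in CML-TKI 4, and Alas2 and Hbb-bt, highest in CML-TKI 3. Each is the 250 bases before the RefSeq start on GRCm38.p6, written 5′ to 3′ on the strand of the gene. The positions are chr8:84901732-84901981 on the plus strand for Klf1, chr4:119189996-119190245 on the minus strand for Ermap, chrX:150547167-150547416 on the plus strand for Alas2 and chr7:103813924-103814173 on the minus strand for Hbb-bt. Capitals mark matches, on either strand, to the core of a GATA site (AGATAA or TGATAA) or to a KLF-type CACC box (CCNCNCCC), and adjoining capitals can hold overlapping matches.
Klf1: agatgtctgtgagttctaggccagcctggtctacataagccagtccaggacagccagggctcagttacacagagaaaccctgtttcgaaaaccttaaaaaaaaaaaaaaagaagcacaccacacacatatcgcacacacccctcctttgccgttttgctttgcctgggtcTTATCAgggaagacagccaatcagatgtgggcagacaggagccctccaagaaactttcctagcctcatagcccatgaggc
Ermap: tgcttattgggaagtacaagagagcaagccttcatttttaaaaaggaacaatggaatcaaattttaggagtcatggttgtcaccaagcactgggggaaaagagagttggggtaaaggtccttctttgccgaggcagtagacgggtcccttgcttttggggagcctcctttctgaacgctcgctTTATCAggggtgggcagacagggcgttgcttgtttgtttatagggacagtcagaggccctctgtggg
Alas2: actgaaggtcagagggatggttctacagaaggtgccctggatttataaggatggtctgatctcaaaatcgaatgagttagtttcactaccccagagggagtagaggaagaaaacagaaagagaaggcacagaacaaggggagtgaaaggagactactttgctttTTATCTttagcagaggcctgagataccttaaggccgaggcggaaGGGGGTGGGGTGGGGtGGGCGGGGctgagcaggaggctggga
Hbb-bt: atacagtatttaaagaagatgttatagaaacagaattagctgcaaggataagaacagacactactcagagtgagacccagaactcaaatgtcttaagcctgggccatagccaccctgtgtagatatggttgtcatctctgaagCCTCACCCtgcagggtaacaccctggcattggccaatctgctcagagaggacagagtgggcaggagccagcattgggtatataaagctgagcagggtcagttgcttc

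One GATA match stood in each of Klf1, Ermap and Alas2, 80, 67 and 86 bases before the start, and none in Hbb-bt. Alas2 held 4 overlapping or adjacent CACC matches within 42 bases of its start, and Hbb-bt held 1, at 107 bases. Of the other members in the RefSeq promoter table, Epor held 1 GATA match and 4 CACC matches, and Gata1 held no GATA match and 3 CACC matches. Over 27025 promoters of the same length, 16.99% held a GATA match and 45.6% a CACC match. Of the 6 members with an entry, 4 held the first and 4 the second. A match is a description of letters and not of a bound site. Car1, Car2 and Slc4a1 had no entry in that table.

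Before the members are taken one by one, 3 features of their values can be stated. The 4 CML libraries were alike: the highest was at most 2.09 times the lowest for 8 of the genes, and 3.72 times for Hbb-bt, where CML 5 was high. They read Gata1, Epor, Klf1, Car1, Car2 and Ermap at clear levels and Slc4a1 and Alas2 near the bottom. The 4 CML-TKI libraries did not resemble each other, with CML-TKI 1, CML-TKI 2 and CML-TKI 3 low in the early genes, CML-TKI 4 high in most of the middle genes and CML-TKI 3 high in the late ones.

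**Figure D1:**
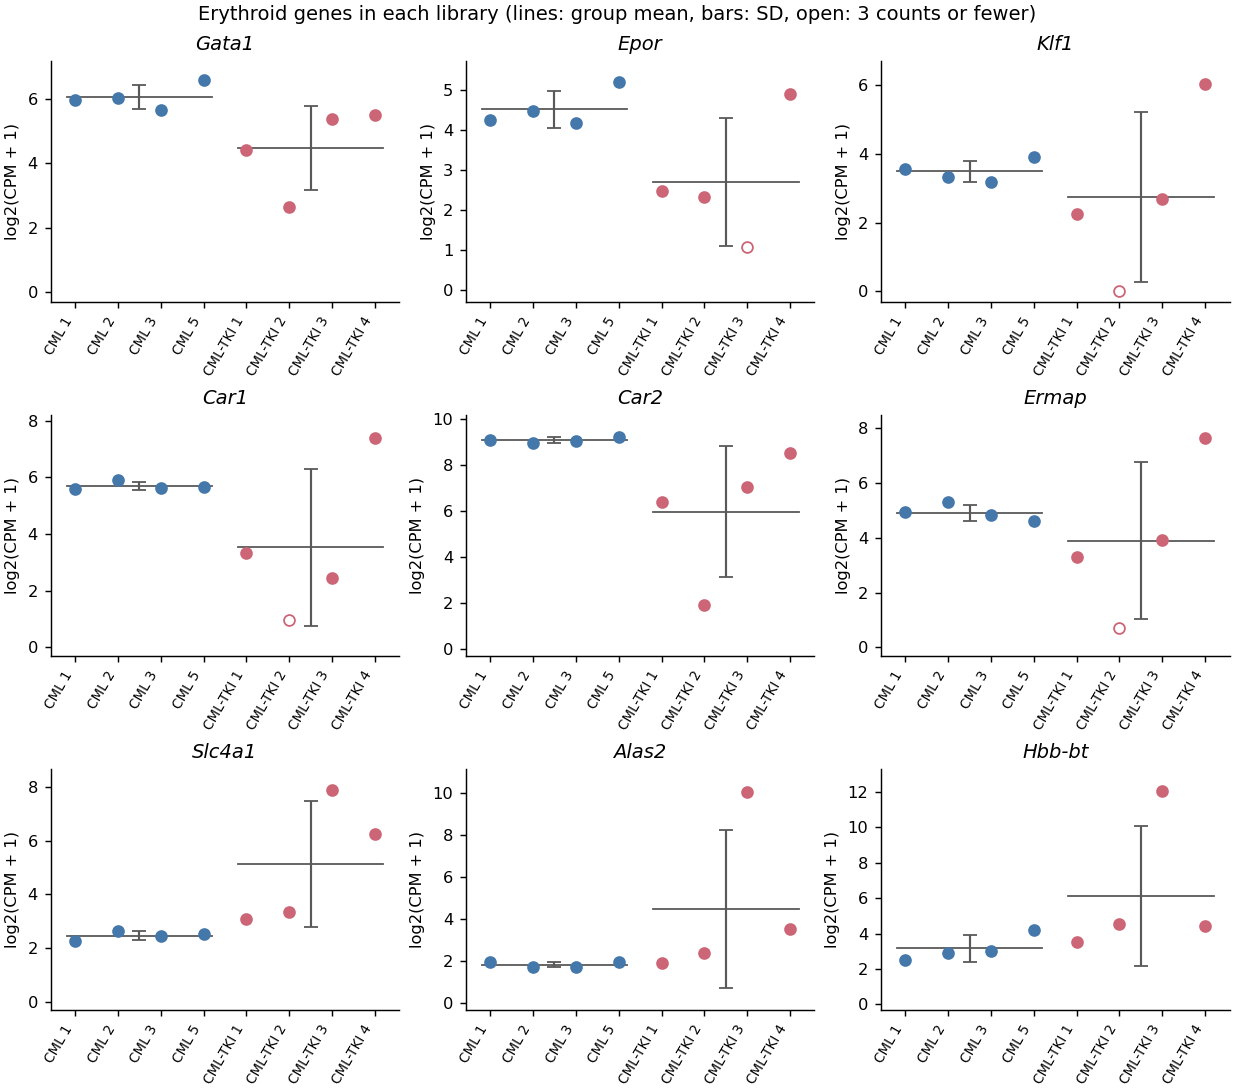
Level of each of the 9 genes in each library, as log2(CPM + 1), with CML in blue and CML-TKI in red. The horizontal lines are the group means and the bars the SD over 4 libraries, and an open circle marks a library with 3 counts or fewer. The CML points sit close together except for Hbb-bt, where CML 5 is higher, while the highest CML-TKI point is CML-TKI 4 for Gata1, Epor, Klf1, Car1, Car2 and Ermap and CML-TKI 3 for Slc4a1, Alas2 and Hbb-bt.

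Gata1 lies at X:7959260-7976663 on GRCm38. It encodes the zinc finger factor required for red cells, megakaryocytes, mast cells and eosinophils. Its level was 61.7, 64.7, 49.5 and 94.6 CPM in CML 1, 2, 3 and 5, and 20.1, 5.27, 40.6 and 44.2 CPM in CML-TKI 1 to 4. Every CML-TKI library was below every CML library, CML-TKI 2 by the widest margin. The group means were 67.6 ± 19.2 and 27.5 ± 18.2 CPM (SD, n = 4 each), a fitted log2 fold change of -1.32 with a standard error of 0.54.

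Epor, at 9:21958897-21963576, encodes the receptor through which erythropoietin keeps committed progenitors alive. It stood at 18.1, 21.04, 17.01 and 35.6 CPM in the CML libraries and at 4.56, 4.03, 1.10 and 28.9 CPM in the CML-TKI libraries. All but CML-TKI 4 were below all CML libraries, and CML-TKI 4 lay within the CML range. The value in CML-TKI 3 was a single count, under the limit for that library. The means were 22.9 ± 8.61 and 9.64 ± 12.9 CPM, with a log2 fold change of -1.19 and a standard error of 0.76, and of -2.68 without CML-TKI 4.

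Klf1 (8:84901982-84905291), whose upstream stretch is printed above, encodes the factor that activates adult β-globin and much of the erythroid program. The CML libraries held 10.8, 9.07, 8.12 and 14.02 CPM. CML-TKI 1 held 3.80 CPM, CML-TKI 2 not a single count, CML-TKI 3 5.48 CPM (5 counts) and CML-TKI 4 64.3 CPM (247 counts). CML-TKI 4 was thus far above every other library and the other CML-TKI libraries below every CML library. The mean rose from 10.5 ± 2.6 to 18.4 ± 30.7 CPM only through CML-TKI 4. The fitted log2 fold change was 0.83 with a standard error of 1.14, and -1.89 without that library.

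The carbonic anhydrases interconvert carbon dioxide and bicarbonate, and Car1 and Car2 lie in one cluster on chromosome 3, 77.9 kb apart and with Car3 between them, with 490 of 786 coding bases (62.3%) identical in an alignment of their longest coding frames. Car1 (3:14766214-14808365), the form most abundant in red cells, was read at 47.5, 59.6, 48.9 and 49.8 CPM in the CML libraries. In the CML-TKI libraries it was read at 9.12, 0.930, 4.38 and 168.8 CPM, the second value being 3 counts and the third 4 counts. CML-TKI 4 was again above, and the other CML-TKI libraries below, the whole CML range. The means of 51.5 ± 5.53 and 45.8 ± 82.1 CPM differed by a log2 fold change of -0.14 (standard error 1.11), which became -3.35 without CML-TKI 4.

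Car2 (3:14886269-14900770), the high-activity form also present in osteoclasts and many other cells, had the highest CPM of the 9 genes in every CML library. Its CML values were 545, 486, 522 and 592 CPM. Its CML-TKI values were 81.3, 2.79, 130.4 and 365 CPM. The groups did not overlap, and CML-TKI 2 held only 9 counts where the CML libraries held between 2518 and 4309. The mean was 536 ± 44.6 CPM in CML and 145 ± 156 CPM in CML-TKI, a log2 fold change of -1.89 with a standard error of 0.89, and of -2.94 without CML-TKI 4. Per kilobase of transcript, Car2 exceeded Car1 by 5.44 to 7.95 times in the CML libraries and by 5.95 times in CML-TKI 1. The ratio was 2.0 in CML-TKI 2, 19.9 in CML-TKI 3 and 1.44 in CML-TKI 4, outside the CML range in all of these, but Car1 had only 3 counts in CML-TKI 2 and 4 in CML-TKI 3.

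Ermap (4:119175457-119190013) encodes a membrane protein of erythroid cells that carries a blood group antigen in man. The CML libraries held 29.4, 38.6, 27.6 and 23.4 CPM. The CML-TKI libraries held 8.93 CPM, 0.620 CPM (2 counts), 14.3 CPM and 199.8 CPM. The order of the CML-TKI libraries was that of Klf1, with CML-TKI 4 at the top and CML-TKI 2 at the bottom. The means were 29.8 ± 6.42 and 55.9 ± 96.1 CPM, with a log2 fold change of 0.93 (standard error 1.13) that became -2.02 without CML-TKI 4.

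Slc4a1 (11:102348820-102365281) encodes band 3, the chloride and bicarbonate exchanger and membrane anchor of the red cell skeleton. It was low and even in the CML libraries, at 3.81, 5.21, 4.45 and 4.67 CPM. The CML-TKI libraries held 7.41, 8.99, 235.6 and 75.4 CPM. All 4 were above every CML library, the first 2 narrowly. The mean went from 4.54 ± 0.58 to 81.9 ± 107 CPM. The log2 fold change was 4.13 with a standard error of 1.03, 2.76 without CML-TKI 3, and 0.84 without CML-TKI 3 and CML-TKI 4.

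Alas2 (X:150547417-150570622) encodes the erythroid form of aminolevulinate synthase, which makes the first precursor of heme. The CML libraries held 2.86, 2.32, 2.32 and 2.89 CPM, or 12 to 21 counts. The CML-TKI libraries held 2.85, 4.34, 1063 and 10.7 CPM. CML-TKI 1 was within the CML range, CML-TKI 2 and CML-TKI 4 were above it, and CML-TKI 3 stood alone with 970 counts in the shallowest library. The means were 2.6 ± 0.32 and 270.2 ± 529 CPM, and the log2 fold change was 6.65 (standard error 1.94), or 1.19 without CML-TKI 3.

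Hbb-bt (7:103812524-103813923) encodes an adult β-globin chain. It was read at 4.77, 6.37, 6.96 and 17.7 CPM in the CML libraries and at 10.5, 22.3, 4214 and 20.3 CPM in the CML-TKI libraries. CML-TKI 3 was again far from all other libraries, while CML-TKI 2 and CML-TKI 4 were a little above CML 5. The means were 8.96 ± 5.93 and 1067 ± 2098 CPM, and the log2 fold change was 6.88 (standard error 2.04), or 0.98 without CML-TKI 3. Its row was equal to that of Hbb-b2 in 8 of 8 libraries, and its coding bases match those of the neighboring Hbb-bs at 443 of 444 positions. How reads were divided among these copies is not given, so the value may hold reads of the other adult β-globin genes.

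Counted over the members, every CML-TKI library was below every CML library for 2 of the 9 genes (Gata1 and Car2), against 13.1% of all 11937 genes tested, and above for 1 (Slc4a1), against 10.3%. Since the genes were selected on this contrast nothing is read from these counts. The threshold of an adjusted p of 0.05, which 10.2% of all genes tested passed, was not applied to the 9.

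The members were then set against the mean of the 4 CML libraries one library at a time, on the log2 CPM scale with a prior count of 2. The 4 comparisons share the CML libraries, so they are given side by side and are not independent. CML-TKI 1 was lower for the first 6 genes, by 1.34 (Klf1) to 2.71 (Car2) log2 units, and within 0.67 of the CML mean for the last 3. CML-TKI 2 was lower for the same 6, with differences of -3.54 for Gata1, -2.33 for Epor and -7.38 for Car2, and between 0.67 and 1.46 higher for the last 3.

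CML-TKI 3 crossed from low to high along the order. Its difference was -0.69 for Gata1, -3.88 for Epor, -0.86 for Klf1, -3.43 for Car1, -2.03 for Car2 and -1.02 for Ermap, and then 5.58 for Slc4a1, 8.47 for Alas2 and 8.99 for Hbb-bt, which correspond to 47.9, 354 and 509 times the CML mean. CML-TKI 4 rose in the middle of the order, with differences of 2.6 for Klf1, 1.71 for Car1, 2.75 for Ermap and 3.94 for Slc4a1. It then came down to 1.88 for Alas2 and 1.32 for Hbb-bt, while Gata1 (-0.57) and Car2 (-0.55) were slightly below the CML mean.

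**Figure D2:**
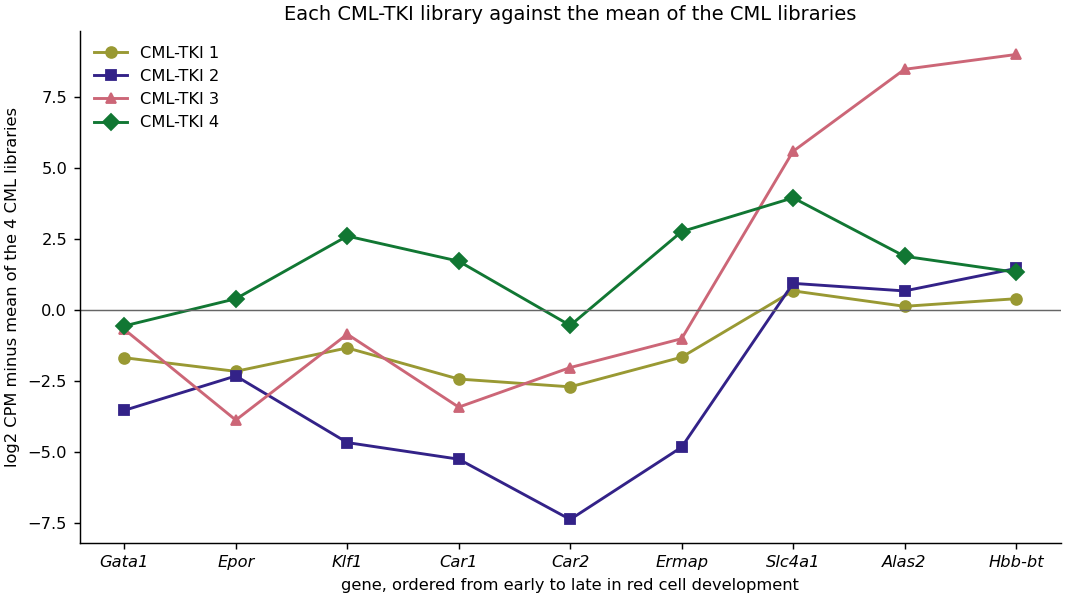
Difference of each CML-TKI library from the mean of the 4 CML libraries, in log2 CPM (prior count 2), for the 9 genes ordered from early to late. The line of CML-TKI 4 is highest at Slc4a1 (3.94) and is also high at Klf1, Car1 and Ermap but not at Car2 between them (-0.55), the line of CML-TKI 3 climbs to 8.99 at Hbb-bt, and the lines of CML-TKI 1, CML-TKI 2 and CML-TKI 3 lie below 0 up to Ermap. The 4 lines share the same CML mean.

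The same differences, counted at a limit of 4-fold, restate this split. There were 3 members at least 4-fold above the CML mean in CML-TKI 3 (Slc4a1, Alas2 and Hbb-bt), against 6.32% of all genes tested in that library, and 3 in CML-TKI 4 (Klf1, Ermap and Slc4a1), against 4.15%. None was that high in CML-TKI 1 or CML-TKI 2, where 4.98% and 4.66% of all genes were. At least 4-fold below the CML mean were 3 members in CML-TKI 1 (2.65% of all genes), 6 in CML-TKI 2 (16.2%), 3 in CML-TKI 3 (16.6%) and 0 in CML-TKI 4 (10.7%). The 6 in CML-TKI 2 were all the members from Gata1 to Ermap.

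Levels of different genes were compared per kilobase of transcript. In the CML libraries the order began with Car2, at 271.8 to 331.3 CPM per kilobase, followed by Car1 (43.1 ± 4.63, SD, n = 4, as for the genes after it) and Gata1 (35.5 ± 10.1), whose ranges overlapped. Epor (13.03 ± 4.89), Hbb-bt (12.7 ± 8.43), Klf1 (6.86 ± 1.70) and Ermap (6.54 ± 1.41) formed a middle group in which neighbors overlapped. Alas2 (1.27 ± 0.158) and Slc4a1 (0.998 ± 0.127) came last, also overlapping. In CML-TKI 4 the order was Car2, Car1, Ermap and Klf1, at 204, 141, 43.9 and 42.0 CPM per kilobase. In CML-TKI 3 it was Hbb-bt (5994), Alas2 (522), Car2 (72.9) and Slc4a1 (51.8). Hbb-bt exceeded Slc4a1 by 7.90 to 24.5 times per kilobase in the CML libraries, by 116 times in CML-TKI 3 and by 1.74 times in CML-TKI 4.

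The remaining genes of the erythroid program were taken from 8 lists with 119 genes, of which 110 were in the table and 101 were tested. The lists were written with earlier results of these libraries known, and 1 of the 101, Hbb-b2, has the same values as the member Hbb-bt. Past an adjusted p of 0.05 (edgeR quasi-likelihood, Benjamini-Hochberg over all genes tested), 4 of the 101 were higher in CML-TKI, against 6.29% of all genes, and 12 were lower, against 3.93%. The median log2 fold change over the 101 was -0.02, and over all genes tested -0.0003. Leaving out CML-TKI 1 raised the 4 to 14, leaving out any one CML library lowered it to 2, and leaving out CML 1 took the 12 to 7. Without both CML-TKI 3 and CML-TKI 4 the lower genes numbered 19. With CML 1 to 3 summed to 1 library, 0 were higher and 2 lower. Of the called genes named below, other than those picked after their values were seen, Lmo2, Kit and Cd48 kept their call under that summing, and the others lost it, with adjusted p of 0.0558 (Gata2) to 0.329 (Ctse).

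Of the 12 lower genes 6 were erythroid transcription factors or their partners. Among the 16 of that list, 6 fell and 0 rose, with a median log2 fold change of -0.81, and 11 had an unadjusted p under 0.05. DESeq2 called 9 lower, limma-voom 9 lower and 1 higher, and the edgeR fit 1 with CML 1 to 3 summed. Without CML-TKI 1, 1 gene rose in edgeR. Zfpm1, the cofactor FOG1 that binds GATA1, fell by 2.73 on the log2 scale (SE 0.58, adjusted p = 0.0172). It was at 325.8 to 457.7 CPM in CML and at 83.6, 7.13, 53.7 and 81.7 CPM in CML-TKI 1 to 4. Lmo2, the bridging protein of the complex that joins GATA1 and TAL1 on DNA, fell by 2.31 (SE 0.20, adjusted p = 5.41e-04). It was the most even of them, at 139.0, 109.7, 133.7 and 157.9 CPM in the CML-TKI libraries against 623.6 to 755.6 CPM in CML. Tal1 itself, a master factor of blood stem cells and red cells, fell by 1.76 (SE 0.41, adjusted p = 0.0263), from 291.0 to 362.9 CPM in CML to 96.3, 69.4, 35.1 and 182.4 CPM.

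Gata2, which precedes GATA1 in the lineage and is displaced by it as red cells mature, fell by 2.32 (SE 0.36, adjusted p = 0.00418). Its levels were 252.5 to 358.5 CPM in CML and 74.8, 21.7, 65.8 and 66.3 CPM in CML-TKI. Per kilobase, Gata2 exceeded Gata1 by 2.02 to 2.79 times in the CML libraries, by 1.98 times in CML-TKI 1 and by 2.19 times in CML-TKI 2, and was 0.864 and 0.799 times Gata1 in CML-TKI 3 and CML-TKI 4, the libraries with high middle and late genes. The other genes past the threshold, named after their values were seen, were Nfe2 and Bcl11a (log2 fold changes of -1.27 and -1.38), a globin locus factor and a repressor of fetal globin genes. Without CML 5 the adjusted p of Zfpm1 was 0.0515. That of Tal1 was 0.0586 to 0.0712 without any one CML library or without CML-TKI 2. The calls of Lmo2 and Gata2 did not change with any library left out in turn.

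Among 14 genes of erythropoietin and KIT signaling, which act downstream of and beside Epor, 2 rose and 3 fell, with a median of -0.55. Kit, the receptor for stem cell factor and one of the sort markers, fell by 1.92 (SE 0.21, adjusted p = 8.70e-04), from 764.0 to 1023 CPM in CML to 194.3 to 290.4 CPM in CML-TKI. Stat5a, a transcription factor that both EPOR and BCR-ABL activate, fell by 1.49 (SE 0.28, adjusted p = 0.0108), from 211.6 to 306.0 CPM to 58.1 to 134.0 CPM. Cish, an inhibitor of cytokine receptors and a STAT5 target, fell by 2.46 (SE 0.58, adjusted p = 0.0262), from 36.3 to 53.1 CPM to 3.10 to 18.6 CPM.

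Tfrc, the transferrin receptor that brings iron into dividing and hemoglobin-making cells, rose by 1.84 (SE 0.33, adjusted p = 0.00847). It was highest in CML-TKI 4, at 470.6 CPM, and stood at 176.6, 294.4 and 212.6 CPM in the others against 59.7 to 103.8 CPM in CML. Lyn, a Src family kinase, rose by 1.26 (SE 0.34, adjusted p = 0.0435). The call of Lyn was lost without any one of 7 libraries (adjusted p of 0.0578 to 0.117), all but CML-TKI 1, and that of Cish without any one of the same 7 (0.0530 to 0.0725).

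Genes of early erythroid progenitors (15 tested, median -0.62) held 1 that rose and 2 that fell. Apoe, the lipid carrier, fell by 1.95 (SE 0.43, adjusted p = 0.0193), from 64.4 to 133.9 CPM to 8.99 to 38.4 CPM. Cnrip1, a cannabinoid receptor interacting protein, had 34 to 62 counts in the CML libraries and 4, 0, 0 and 1 counts in CML-TKI 1 to 4 (adjusted p = 0.0115), too few for a fold change. Ctse, an aspartic protease of erythroid and other cells, rose by 1.85 (SE 0.49, adjusted p = 0.0426) and was highest in CML-TKI 4, at 163.6 CPM against 14.9 to 26.8 CPM in CML. Of its 15 genes, 6 were at least 4-fold below the CML mean in CML-TKI 1 (2.65% of all genes tested), 13 in CML-TKI 2 (16.2%), 6 in CML-TKI 3 (16.6%) and 2 in CML-TKI 4 (10.7%). The 3 at least 4-fold above it were Ctse, Atp1b2 and Nxpe2, all in CML-TKI 4 (4.15% of all genes). Without CML 1, without CML 5 and without CML-TKI 4 the list held 0, 1 and 5 genes past the threshold in the lower direction. Ctse lost its call without any CML library, CML-TKI 2 or CML-TKI 4 (adjusted p of 0.0703 to 0.125), and Apoe without CML 1, CML 5 or CML-TKI 4 (0.0510 to 0.0581). Cnrip1 lost it without CML 1 (0.0509).

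Of 18 genes of heme synthesis and transport (median 0.51), 1 rose and 0 fell, and 7 had an unadjusted p under 0.05. DESeq2 called 4 and limma-voom 3. The gene called by edgeR was Alas1, the form of aminolevulinate synthase found in all cells and the counterpart of Alas2. It rose by 3.06 (SE 0.45, adjusted p = 0.00319), from 23.9 to 39.0 CPM in CML to 71.2, 277.7, 355.1 and 260.9 CPM. Unlike Alas2 it was thus above the CML range in all 4 CML-TKI libraries. Alas1 exceeded Alas2 by 5.76 to 8.10 times per kilobase in the CML libraries and by 15, 38.4 and 14.7 times in CML-TKI 1, 2 and 4, and was 0.20 times Alas2 in CML-TKI 3. Among the others, picked after their values were seen, Fech, which inserts iron into heme, was at 630.2 CPM in CML-TKI 3 against 49.2 to 59.8 CPM in CML and 59.5 to 93.4 CPM in the other CML-TKI libraries. Slc25a37, the mitochondrial iron importer, was at 1003 CPM there against 55.8 to 72.9 CPM in CML and 58.9 to 97.3 CPM elsewhere. Urod, an earlier enzyme of the pathway, was low there, at 5.48 CPM (5 counts) against 37.04 to 53.3 CPM in CML. In CML-TKI 3, 4 of the 18 genes were at least 4-fold above the CML mean (6.32% of all genes tested) and 1 below it (16.6%). Without CML-TKI 1 the list held 5 genes past the threshold in the higher direction, and without CML-TKI 3 or without CML-TKI 4 it held 2, with 1 lower in the last case.

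CML-TKI 3 held most of the globin counts of the 8 libraries. Of 6 globin genes in the table other than Hbb-bt, 5 were tested, 0 passed the threshold of edgeR and 5 had an unadjusted p under 0.05. One of the 5 is Hbb-b2, whose row repeats that of Hbb-bt, so it is no separate measurement. Hbb-bs and Hbb-b1 kept a near-constant proportion, with 135 and 250 counts in CML 1 and 10880 and 20156 in CML-TKI 3. In CML-TKI 4 they held 246 and 457 counts. These 2 rows may not be separate measurements either. limma-voom with sample weights called 1, and DESeq2 gave none of the 5 a p-value. Hba-a1, an α-globin gene, was at 6.76 to 23.7 CPM in CML and at 15, 29.1, 19620 and 109.8 CPM in CML-TKI 1 to 4 (log2 fold change 8.51, SE 2.38, adjusted p = 0.0503; the fold change was 1.93 without CML-TKI 3). Hbb-b1, an adult β-globin gene, was at 13.1 to 37.7 CPM in CML and at 17.5, 29.1, 22090 and 118.9 CPM (7.77, SE 2.31, adjusted p = 0.0616), and its log2 fold change was 1.13 without CML-TKI 3 and -0.14 without both CML-TKI 3 and CML-TKI 4. All globin genes together, with the row shared by Hbb-bt and Hbb-b2 counted under both names, made up 0.00463 to 0.0113% of counts in the CML libraries, and 0.00768, 0.0149, 6.63 and 0.0428% in CML-TKI 1 to 4. Hbb-bs and Hbb-b1 were also both counted in this share. Left out in turn, CML-TKI 1, 2 and 4 took the number past the threshold from 0 to 5, 4 and 2.

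In the edgeR fit the red cell membrane and skeleton list (20 tested, median 0.61) held 1 gene that fell and 0 that rose, with 3 at an unadjusted p under 0.05. DESeq2 called 2 lower, and limma-voom 3 lower and 1 higher. Gypc, glycophorin C, which ties the skeleton to the membrane and is present in many tissues, fell by 1.14 (SE 0.24, adjusted p = 0.0145), from 102.4 to 120.4 CPM to 33.98 to 62.3 CPM. Leaving out CML 1, CML 2 or CML 3 ended that call (adjusted p of 0.0502 to 0.0582), and 2 genes fell without CML-TKI 1 or without CML-TKI 4. Within CML-TKI 4, 9 of the 20 genes were at least 4-fold above the CML mean (4.15% of all genes tested) and 2 below it (10.7%), and within CML-TKI 3, 5 were above (6.32%) and 4 below (16.6%). In CML-TKI 2, 0 were above (4.66%) and 8 below (16.2%), and in CML-TKI 1, 0 (4.98%) and 2 (2.65%). Among the genes above in both were Sptb, Epb42 and Kel, which encode β-spectrin, protein 4.2 and the Kell blood group antigen. Ank1, Rhag, Rhd, Add2 and Dmtn, which encode ankyrin, the Rhesus proteins, β-adducin and dematin, were that high in CML-TKI 4 alone, and Epb41, protein 4.1, in CML-TKI 3 alone. The 4 below in CML-TKI 3 were Xk, Tmod1, Icam4 and Cd59a, and the 2 in CML-TKI 4 were Tmod1 and Bcam. These names were taken after the values were seen and the 4-fold limit is a description with no test.

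Of 8 maturation genes 0 passed the threshold in either direction, with 2 at an unadjusted p under 0.05 and 1 called by each of DESeq2 and limma-voom, in both cases lower, as was 1 without CML-TKI 1. The 2 with the highest level were Bsg, basigin (log2 fold change 0.39, adjusted p = 0.468), and Prdx2, a peroxidase abundant in red cells (-0.25, adjusted p = 0.742). Bpgm, Ube2o and Ube2l6, picked after their values were seen, were at 224.7, 451.5 and 288.2 CPM in CML-TKI 3 and at most 18.3, 61.6 and 46.2 CPM in CML. Bpgm makes the 2,3-bisphosphoglycerate of red cells, and UBE2O and UBE2L6 are ubiquitin enzymes of late erythroblasts. In CML-TKI 4 the same 3 genes were at 20.8, 42.1 and 14.1 CPM.

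The other carbonic anhydrases (5 tested of 10 in the table) held 0 past the threshold, 1 at an unadjusted p under 0.05, 1 called by DESeq2 and 0 by limma-voom. Car13, of the same cluster as Car1 and Car2, was at 18.2 to 24.1 CPM in CML and at 8.17, 4.34, 0 and 9.63 CPM in CML-TKI (adjusted p = 0.0946, and 0.0326 without CML-TKI 3). Car9, a hypoxia-induced membrane form, was at 3.87 to 7.84 CPM in CML and at 2.66, 3.10, 8.77 and 1.56 CPM in CML-TKI (adjusted p = 0.699).

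**Figure D3:**
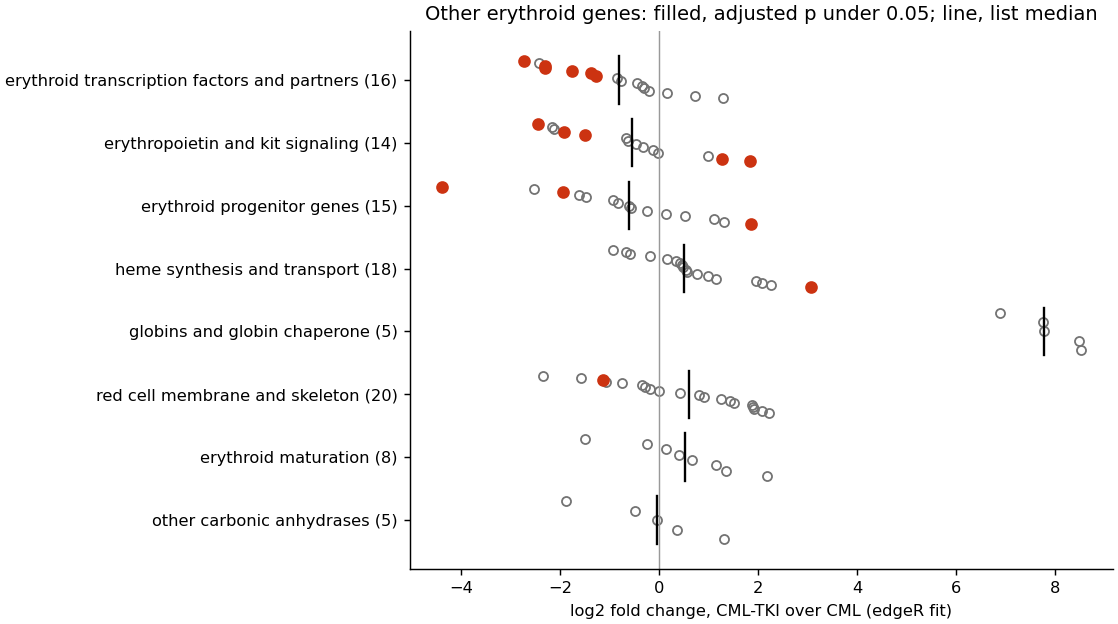
Fitted log2 fold change, CML-TKI over CML, of the 101 tested genes of 8 lists around the 9 genes studied, with the number tested in brackets. Filled points have an adjusted p under 0.05 and the vertical stroke is the list median. The filled points lie to the left for the transcription factors (6 of 16), and the globins, of which Hbb-b2 (6.88) repeats the row of Hbb-bt, lie between 6.88 and 8.51 with none filled.

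The 101 genes were also read by library. In CML-TKI 1, 0 were at least 4-fold above the CML mean and 13 (12.9%) below, in CML-TKI 2 1 and 34 (33.7%), in CML-TKI 3 18 (17.8%) and 23 (22.8%), and in CML-TKI 4 19 (18.8%) and 10 (9.90%). The same shares of all genes tested were 4.98 and 2.65%, 4.66 and 16.2%, 6.32 and 16.6%, and 4.15 and 10.7%. In CML-TKI 4, where 0 of the 9 members were at least 4-fold lower, the 10 list genes that were included Lmo2, Zfpm1, Gata2 and Kit.

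**Figure D4:**
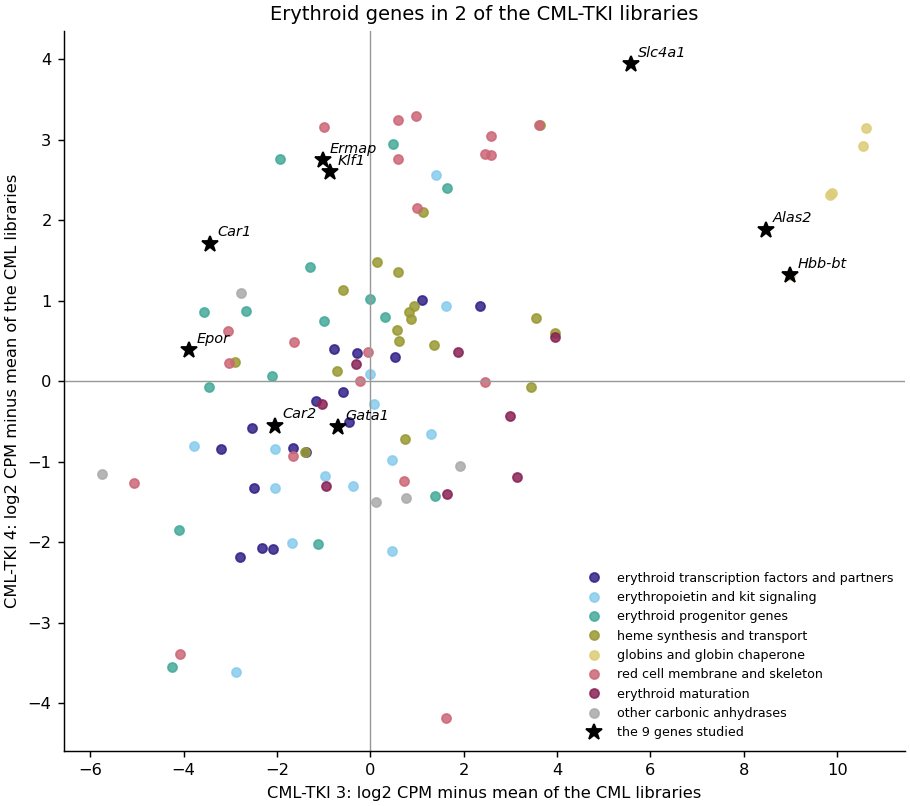
Each point is a gene of the 8 lists (circles, colored by list) or one of the 9 genes studied (stars), placed by its difference from the mean of the CML libraries in CML-TKI 3 (horizontal) and CML-TKI 4 (vertical), in log2 CPM with a prior count of 2. Both axes share the CML mean. The globins, Alas2 and Hbb-bt lie far to the right (8.47 to 10.6), and Klf1, Ermap and Car1 lie to the upper left.

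To see which genes had the pattern most like that of the members, the log2 CPM of each gene tested was correlated with the mean of the 9 standardized profiles over the 8 libraries. That mean profile was lowest in CML-TKI 2 (-1.28) and CML-TKI 1 (-0.49), between 0.05 and 0.30 in the CML libraries, 0.39 in CML-TKI 3 and 0.79 in CML-TKI 4. The closest genes were St3gal6, a sialyltransferase (Pearson r = 0.991), Parp16 (0.990), Camkmt (0.988), Nxpe2 (0.982) and 3110056K07Rik (0.980). With the group means taken out the first was Hdac7 (0.994). The points share their libraries and the genes were picked as the highest of many, so these values describe a likeness and nothing more. Nxpe2, for one, was at 8.70 to 11.8 CPM in CML, had 7 and 0 counts in CML-TKI 1 and CML-TKI 2, and was at 30.7 and 52.0 CPM in CML-TKI 3 and CML-TKI 4.

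Summed levels of cell type markers also differed between the libraries. The 7 markers of red cells and late erythroblasts, which include 3 members, summed to 33.8 to 88.3 CPM in CML and to 57.7, 101, 50640 and 369 CPM in CML-TKI 1 to 4. The 10 megakaryocyte markers, the lineage that shares a progenitor with red cells, summed to 1687 to 2063 CPM in CML and to 412, 64.2, 122 and 881 CPM, and 4 of them, among 10, were at 0 in CML-TKI 2 and in CML-TKI 3. The 10 stem cell markers summed to 1058 to 1242 CPM in CML and to 377, 26.96, 78.9 and 48.9 CPM, with 6, 2 and 4 of them at 0 in CML-TKI 2, 3 and 4.

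Of the white cell markers, those of granulocytes, monocytes and eosinophils had higher sums in every CML-TKI library than in any CML library. Granulocyte markers (11 genes) summed to 163 to 267 CPM in CML and to 1463, 8018, 7929 and 8410 CPM in CML-TKI, and monocyte markers (7 genes) to 15.4 to 28.8 and to 828, 4429, 3219 and 2478 CPM. In CML-TKI 1 the granulocyte marker Ltf (7.98 CPM) was below its CML range of 22.1 to 54.1 CPM. Ngp, Camp and S100a8 lay within their CML ranges there, and the other granulocyte markers were above theirs. Mast cell and basophil markers (5 genes), a lineage that also uses GATA1, summed to 2.06 to 4.05 CPM in CML, to 118, 204 and 1164 CPM in CML-TKI 1, 2 and 4, and to 4.38 CPM in CML-TKI 3, where 3 of the 5 were at 0 and the sum was 4 counts. Eosinophil markers (6 genes) summed to 4.83 to 37.1 CPM in CML and to 857, 1870, 98.6 and 2929 CPM in CML-TKI. In CML-TKI 3, Epx, Prg2 and Prg3 were at 0, while Ear1, Siglecf and Ccr3 were at 54.8, 21.9 and 21.9 CPM. B cell markers (6 genes) were at 250 CPM in CML-TKI 3 and at 16.9 to 23.2 CPM in the other 7 libraries, and T cell markers (6 genes) at 116 CPM there, at 0.620 to 36.9 CPM elsewhere. The part of these cells in the erythroid values was not tested.

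**Figure D5:**
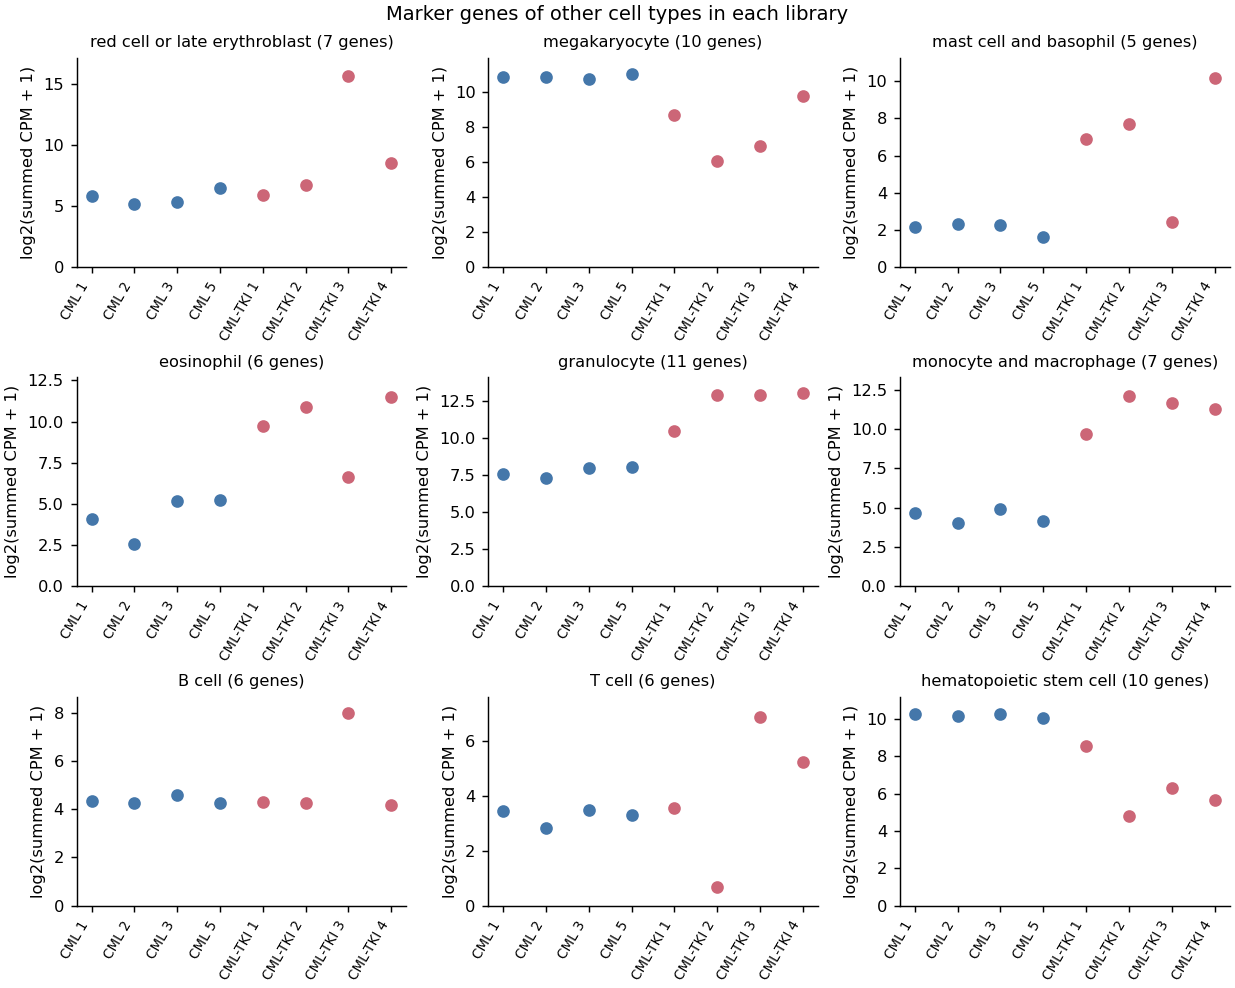
Summed level of marker genes of 9 cell types in each library, as log2(summed CPM + 1), with CML in blue and CML-TKI in red. The red cell sum stands out in CML-TKI 3 (50640 CPM), the mast cell and eosinophil sums are highest in CML-TKI 4 (1164 and 2929 CPM), and the megakaryocyte and stem cell sums are lower in all 4 CML-TKI libraries than in any CML library.

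The genes of the sort gate were checked in the same fit. Slamf1, which encodes CD150, fell by 3.42 on the log2 scale (adjusted p = 0.00797), from 29.01 to 37.7 CPM in CML to 0.620 to 6.58 CPM in CML-TKI. Cd48 rose by 4.35 (adjusted p = 8.70e-04), from 3.87 to 6.40 CPM to 39.9 to 178.2 CPM. In RNA the CML libraries thus held more Slamf1 than Cd48 and the CML-TKI libraries more Cd48 than Slamf1, although the labels give both groups one gate. Ly6a, which encodes Sca1 (log2 fold change -1.12, adjusted p = 0.373, and 0.0117 without CML-TKI 1), Flt3 (0.65, adjusted p = 0.522) and Ptprc, which encodes CD45 (1.02, adjusted p = 0.203, and 0.0411 without CML-TKI 1), did not pass the threshold. limma-voom with sample weights called Ly6a lower (log2 fold change -2.42, adjusted p = 0.0257). CML-TKI 1, whose total count lay within the CML range, was 6.56-fold below the CML mean for Slamf1 and 7.52-fold above it for Cd48. Treatment and the makeup of the sorted cells cannot be told apart in this design.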

How the data were processed

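RNA of sorted cells (4 CML and 4 CML-TKI libraries) had been isolated with the RNeasy Plus kit, made into Nextera XT libraries, aligned to mm10 with STAR 2.6.1d and quantified to RefSeq transcripts in Partek Flow (version 8.0 in the submitters' processing notes). The deposited values are estimated counts per gene, not normalized. Non-whole values (8.32 to 22.1% per library) were rounded. How reads shared by near-identical genes were divided is not given in the sources used here. Columns were matched to samples by name; the column CML 5 matches its group but no number in the labels. 0 columns stayed unassigned.

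Counts were fitted in edgeR 4.0.16 (R 4.3.3) with TMM, filterByExpr (minimum count 10, minimum total 15), robust quasi-likelihood and Benjamini-Hochberg adjustment over 11937 genes, threshold 0.05, without covariates. CPM are TMM-scaled, and log2 CPM used a prior count of 2. The ribosomal row Rn45s held 9.23 to 38.3% of counts. p-values measure the spread between libraries only. The model was also run on simulated data, with an outcome not reported here.

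The members and lists were chosen with earlier results of these data known. Besides members and gate genes, the text names up to 4 genes per list and direction past the threshold with the largest change and a mean log2 CPM of at least 1 (where none passed, the 2 with the highest level), and the 5 most similar genes in each of 2 rankings. Other names were picked after values were seen. Promoters and coordinates came from RefSeq tables of GRCm38.p6 (mm10), found for 6 of 9 and 9 of 9 members, and transcript lengths from GENCODE. Alternatives were DESeq2 1.42.0, limma-voom (limma 3.58.1), other scalings, no filter, a replicate block and libraries left out. Some genes of the lists are not reported here by name.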

Additional observations from a re-analysis of the deposited data

Results flagged for a closer look

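In groups of 4, a library was singled out when its gap to the nearest other library took up more of the range than Dixon's 95% limit allows. Chance alone flags about 1 in 20 groups. Of 80 such tests 14, on 12 genes, were past the limit, and 8 of the 14 concerned CML-TKI 3 or CML-TKI 4. The genes were the members, chosen with their values known, and genes named for their calls, levels or likeness to the members, so no excess over chance is read from that number.

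CML-TKI 4 stood apart from the other CML-TKI libraries for Epor (28.9 CPM), Klf1 (64.3 CPM), Car1 (168.8 CPM) and Ermap (199.8 CPM). CML-TKI 3 stood apart for Alas2 (1063 CPM), Hbb-bt (4214 CPM), Hbb-b1 (22090 CPM) and Hba-a1 (19620 CPM). CML-TKI 2 was alone at the bottom for Gata2 (21.7 CPM), and CML-TKI 1 alone at the top for Cish (18.6 CPM).

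Among the CML libraries, CML 5 stood apart for Hbb-bt (17.7 CPM), Gata2 (358.5 CPM) and, on the low side, Ptprc (74.0 CPM), and CML 2 for Nxpe2 (11.8 CPM). CML 5 also had the largest share of Rn45s counts, 38.3%. The part of depth, cell makeup or library preparation in these values was not tested.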

How the results depend on the processing

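The count of genes past the threshold, 1220, was 2157 with DESeq2, 2544 with limma-voom, 122 with CML 1 to 3 summed to 1 library, and 505 (without CML 1) to 2504 (without CML-TKI 1) with 1 library left out. Pathway genes, 4 higher and 12 lower, were 7 and 20 with DESeq2 and 9 and 21 with limma-voom. The 4 became 2 with total counts without Rn45s and with no filter, 0 with CML 1 to 3 summed, and 2 to 14 with 1 library left out. The 12 became 2 with CML summed and 7 to 18 with 1 library left out. With CML-TKI 3 and CML-TKI 4 both left out, an alternative chosen after seeing the data, the 12 became 19 and log2 fold changes became -2.39 for Gata1, -2.37 for Klf1, -3.29 for Car1, -2.58 for Ermap, 0.84 for Slc4a1, 0.45 for Alas2 and 0.85 for Hbb-bt. limma-voom gave 1.97 for Alas2 and 2.81 for Hbb-bt. With 1 library left out, log2 fold changes ran from -2.68 to -0.87 for Epor, -1.89 to 1.25 for Klf1, -3.35 to 0.27 for Car1, -2.94 to -1.48 for Car2, -2.02 to 1.34 for Ermap, 2.76 to 4.51 for Slc4a1, 1.19 to 7.06 for Alas2 and 0.98 to 7.45 for Hbb-bt. The signs of Gata1, Epor, Car2, Slc4a1, Alas2 and Hbb-bt held in all 16 alternatives. Of 494 values of 31 named genes, 413 kept their side of the threshold, 64 lost it, 17 gained it and 0 reversed with a call. Only genes called in the main fit could lose a call, and the 413 include values of genes not called there. Over all genes the median change (log2) was -0.14 with scaling to totals without Rn45s, -0.0154 with RLE scaling, -0.11 with limma-voom and -0.13 with the block on 6 libraries. Other shifts have causes that were not tested. Depth limits CML-TKI 3 most.

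For the numbers 1 to 3 shared by both groups, deviations from the group means correlated by -0.04, 0.10 and 0.09. Differences particular to single libraries also enter these values, so they cannot decide whether the numbers pair the libraries. With the number as a replicate block on those 6 libraries, 193 genes were past the threshold, 0 pathway genes were higher and 6 lower, and log2 fold changes were -2.55 for Epor, -2.19 for Klf1, -3.72 for Car1, -2.46 for Ermap, 2.30 for Slc4a1, 2.80 for Alas2 and 3.29 for Hbb-bt. Under it 3 transcription factors were lower, and of the called genes named by the rule, Lmo2, Tal1, Kit, Stat5a and Cd48 kept their call and the others did not, with adjusted p of 0.0593 for Gata2, 0.0750 for Alas1, 0.0987 for Tfrc, 0.0991 for Gypc, 0.108 for Slamf1, 0.117 for Zfpm1, 0.135 for Cish, 0.155 for Apoe, 0.188 for Cnrip1, 0.222 for Lyn and 0.227 for Ctse. With CML 1 to 3 summed it was 0.134 for Slamf1, 0.131 for Tfrc, 0.105 for Stat5a, 0.146 for Zfpm1, 0.181 for Tal1 and 0.0968 for Alas1.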

Other observations

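Some erythroid genes were too low to be tested and are given as counts. Trim10, a late erythroid ubiquitin ligase, had 11, 2, 3 and 4 counts in CML 1, 2, 3 and 5 and 1, 0, 14 and 34 in CML-TKI 1 to 4, which for CML-TKI 3 and CML-TKI 4 are 15.34 and 8.85 CPM. Hbq1a, a θ-globin gene, had 12 counts in CML-TKI 3 and 0 in every other library. In CPM both were highest in CML-TKI 3.

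Some carbonic anhydrases outside the cluster of Car1 and Car2 were likewise low. Car6, the secreted form, had 29 counts in CML-TKI 1 and 0 in every other library. Car7 had 7, 2, 7 and 2 counts in the CML libraries and 0 in all 4 CML-TKI libraries. Car8, which lacks the enzyme's zinc site, had 2 to 5 counts in the CML libraries and 10, 23, 14 and 0 in CML-TKI 1 to 4. All genes of these 2 groups were picked after their values were seen.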
